A study of Homo sapiens with 6 samples.

Results

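The genes described here encode collagen chains, laminin chains and the alpha and beta subunits of integrins. They were chosen by symbol from the protein-coding genes of the deposited tables, and a gene was kept where at least 3 of the 6 libraries had 10 or more estimated reads. Of 82 genes with a matching symbol 26 were kept, out of 62260 gene rows in all: 7 of 44 collagen, 7 of 12 laminin, 8 of 18 integrin alpha and 4 of 8 integrin beta genes. The RNA came from TYK-nu, a human line that the labels give as ovarian cancer, without drug, and fell into 3 libraries of wild-type cells (WT) and 3 of cells with ZNFX1 knocked out (ZNFX1 KO). The product of ZNFX1 is a helicase-type protein known for sensing viral RNA. The labels call the libraries biological replicates of the same batch, and name neither the knockout method nor a second KO clone, so that loss of ZNFX1 and any other change carried by the KO cells cannot be told apart. Nothing further says that the replicates were separate cultures, so the p-values speak of the spread among these 6 libraries, which may be technical.

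Collagens are made of 3 chains wound into a triple helix, and a given type mostly forms from its own set of chains. Laminins are cross-shaped trimers of an alpha, a beta and a gamma chain that build the basement membrane, the sheet under epithelia and around vessels. Integrins are the pairs of an alpha and a beta subunit by which cells hold on to collagen, laminin and fibronectin, and the pairing sets the ligand. In ovarian cancer these genes are known for the attachment of tumour cells to the lining of the abdominal cavity.

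The libraries held 21413002 to 23494771 assigned fragments, of which 19115530 to 21036063 were on gene rows, and 0 reads in a library allow a level of up to 0.143 to 0.157 CPM (3 reads, counting error only). Values of the libraries of a group are given in the order 1, 2, 3. The labelled cell type was compared with marker genes. Of 9 markers of ovarian and Müllerian epithelium only WT1, KRT8, KRT18 and KRT19 were high enough to be tested, MUC16 was at 0, and PAX8, KRT7 and CDH1 had at most 2 reads in any library. The summed level of the list was 53.1 to 79.0 TPM in WT and 76.4 to 96.7 TPM in the KO. EPCAM had 31, 34 and 5 reads in WT 1, 2 and 3 and 0 in each KO library. All 7 endothelial markers were tested, led by TIE1 and CDH5 at mean levels of 89.5 and 85.3 TPM (a level per transcript length, scaled to the same total in every library), and their summed level was 216 to 297 TPM in WT and 233 to 288 TPM in the KO. Of 11 mesenchymal markers 4 were tested, with VIM at a mean of 1525 TPM and CDH2 at 0. Of 8 leukocyte markers 2 were tested and PTPRC was at 0, and the summed level of the list was 104 to 182 TPM in WT and 81.8 to 110 TPM in the KO. In both groups the near absence of PAX8, MUC16, KRT7 and CDH1 and the presence of every endothelial marker go against the labelled cell type. But WT1, KRT8, KRT18 and KRT19 of the same epithelial list were high enough to be tested, so the list was divided. Reads in transcript rows are not counted in these marker values. The libraries are therefore called here by their labels, and the identity of the line was not tested. WT 2 stood apart by its interferon-stimulated genes, whose sum over 12 genes was 1184 TPM there, 330 and 369 TPM in WT 1 and WT 3, and 318, 173 and 177 TPM in ZNFX1 KO 1, 2 and 3. ZNFX1 itself was at 149 ± 52.2 CPM (reads on gene rows scaled to the size of each library, not to gene length) for WT and at 82.7 ± 17.3 CPM for the KO (SD, n = 3 each), with each KO library below each WT library and a log2 fold change of KO over WT (log2FC) of -0.85 (SE 0.27, edgeR adjusted p = 0.218). By library ZNFX1 was at 130, 208 and 109 CPM in WT and at 103, 70.5 and 75.2 CPM in the KO. WT 3 and ZNFX1 KO 1 lay close together, and WT 2 was highest. Without WT 2 the log2FC of ZNFX1 was -0.53 (edgeR adjusted p = 0.51). ZNFX1 RNA was thus still present in every KO library. By exact permutation of the 6 labels the two-sided p was 0.1, which is the minimum for this design.

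None of the 26 genes had an adjusted p under 0.05 in the quasi-likelihood test of edgeR (0 called), where 0.727% of all 14166 tested genes did, 0.268% as higher and 0.459% as lower. At an unadjusted p under 0.05 there were 8 of the 26, against 15.1% of all tested genes. In 9 of the 26 the KO and WT libraries did not overlap, against 20.2% of all tested genes, and 6 met both conditions, against 12% of all. Among the 6 were LAMB3 and ITGB3, lower in the KO (6.9% of all), and LAMC1, COL8A1 and ITGB8, higher in the KO (5.1% of all). ITGA2 and ITGAX had an unadjusted p under 0.05 with groups that overlapped. Of the 26 values of log2FC 12 were positive and 14 negative, with a median of -0.11, where the median of all tested genes was -0.01. By family the median was 0.01 for collagens, -0.10 for laminins, -0.25 for integrin alpha and -0.35 for integrin beta genes. The median size without regard to sign was 0.56, against 0.28 over all tested genes. Other settings called some of them. DESeq2's Wald test called 7 (4.09% of all genes), edgeR without a filter on low counts called 6 (2.11% of all genes), and edgeR with transcript rows joined to their genes called ITGB3 alone (1.27% of all genes). The call count was 0 with DESeq2 size factors (0.671% of all genes), a filter of 1 CPM in 3 libraries (0.806%), limma-voom (0.536%), limma on log2(TPM + 1) (0.155%) or log2(TPM + 0.1) (0.614%), an effective length offset (0.565%) and a term for the replicate number (0.0988%).

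**Figure D1:**
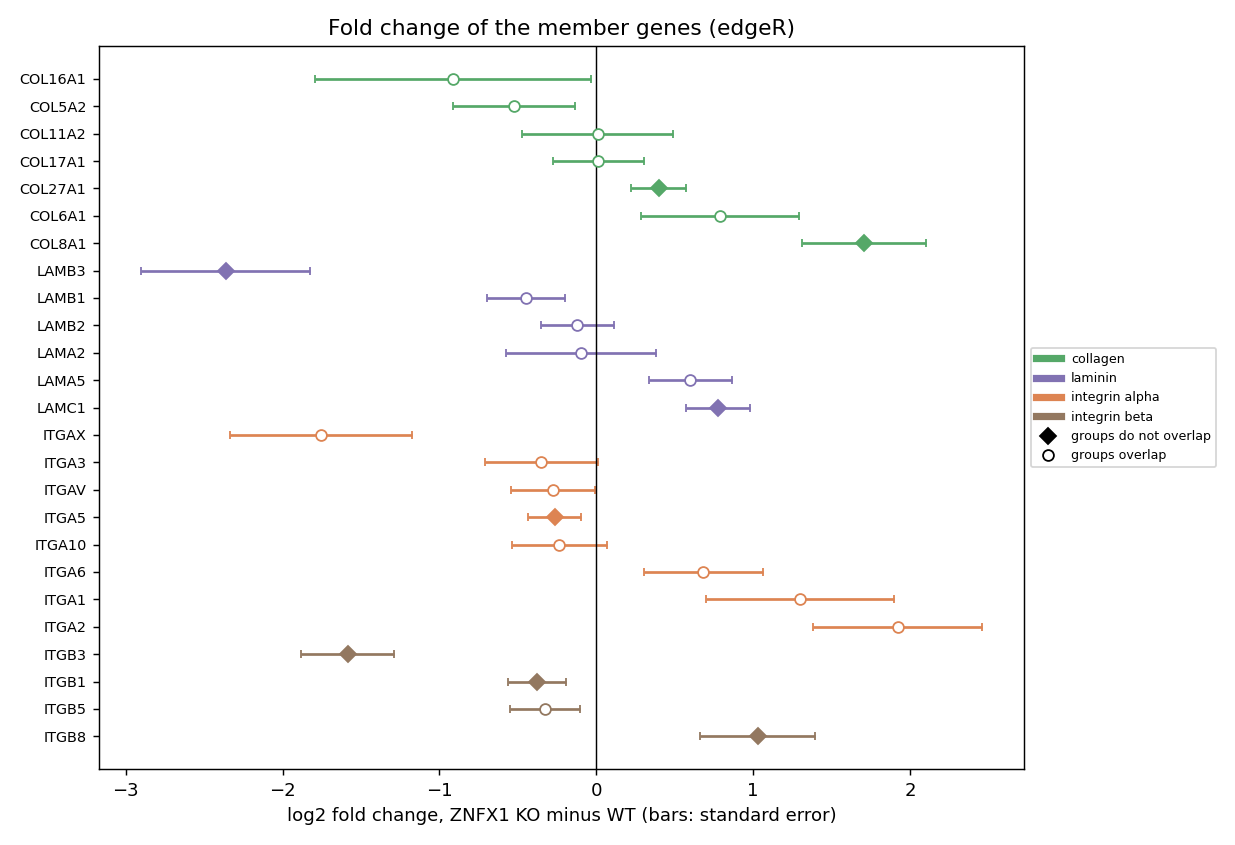
Log2 fold change of 25 of the 26 genes in ZNFX1 KO against WT (x axis, edgeR), by family, with bars for the standard error. Filled diamonds mark the 8 genes drawn whose KO and WT libraries do not overlap in CPM, among them LAMB3 at -2.36 and COL8A1 at 1.70.

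Most genes of these families were close to silent in the gene rows. Of the 56 that were not kept, 25 had 0 reads in the gene rows of every library. They included COL4A1 and COL4A2, the chains of the common network collagen of basement membranes, and COL5A1, COL6A2, COL12A1 and COL18A1. Each had at most 2 reads in a library in the transcript rows assigned to it. Only 103521 of the 134909 transcript rows could be assigned to a gene, so reads in the others were not counted. The fibril collagens of connective tissue were barely read, with COL1A1 at up to 5, COL1A2 at up to 7 and COL3A1 at up to 1 read in a library. Several kept collagens lacked a partner chain among the tables' gene rows. COL6A1 (5 to 17 reads) was read without COL6A2, and COL5A2 (1.67 ± 0.521 CPM in wild-type libraries against 1.16 ± 0.261 CPM in knockout libraries) without COL5A1. Among the integrins ITGA4, ITGAE, ITGAL, ITGB2 and ITGB7 were listed at 0 in every gene row. A 0 in the gene row did not always mean that no read was found. ITGAE had 98 to 145 reads in WT and 121 to 146 in the KO in separate transcript rows of the tables. LAMA1 had 20 to 40 reads in WT and 20 to 30 in the KO in such rows.

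**Figure D2:**
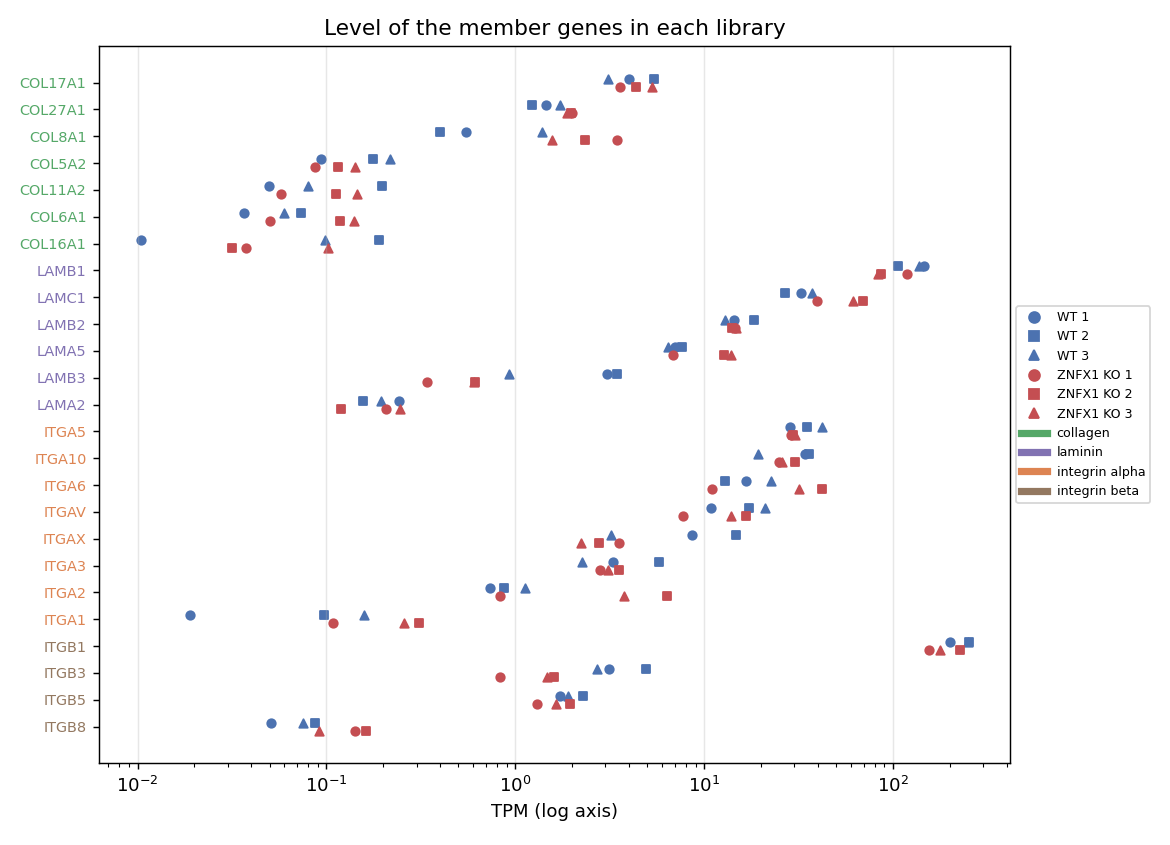
Level of 25 of the 26 genes in TPM (x axis, log scale) in each library, with WT in blue, ZNFX1 KO in red and marker shapes for the replicate number. ITGB1 and LAMB1 are the highest, the collagens lie below 10 TPM, and the KO points of LAMB3 and ITGB3 sit to the left of the WT points.

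The level of the kept genes was set by few of them. On the TPM scale the laminin genes summed to 187 ± 21.5 TPM in WT and 179 ± 4.84 TPM in the KO (SD, n = 3 each), 61.6% of it LAMB1 and 24.3% LAMC1. The collagen genes summed to 6.84 ± 0.751 TPM in WT and 9.19 ± 0.118 TPM in the KO, with 53.5% from COL17A1. The integrin beta genes summed to 239 ± 29.3 TPM in WT and 189 ± 36.3 TPM in the KO, 98.0% of it ITGB1, the common partner of most collagen- and laminin-binding alpha subunits. The integrin alpha genes summed to 112 ± 9.99 TPM in WT and 107 ± 26.1 TPM in the KO, with ITGA5 and ITGA10 at 29.5% and 25.8%. The collagen sums did not overlap between the groups, and the other 3 did. Much of the collagen difference lay in COL8A1, at a mean of 0.776 TPM in WT and 2.45 TPM in the KO. COL17A1 was at 4.17 TPM in WT and 4.41 TPM in the KO.

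Among the collagens, COL8A1, a short-chain collagen of vessel walls and of the membrane under the corneal endothelium, differed most. COL8A1 (ENSG00000144810.16, chromosome 3, 99638475 to 99799226, plus strand, GRCh38) was at 5.11, 3.24 and 8.12 CPM in WT 1, 2 and 3 and at 26.2, 15.8 and 11.8 CPM in ZNFX1 KO 1, 2 and 3. All 3 KO libraries lay above all 3 WT libraries, ZNFX1 KO 1 highest. The log2FC was 1.70 (SE 0.40, edgeR adjusted p = 0.114). COL27A1, a fibril collagen of cartilage, was at 19.0, 16.0 and 17.5 CPM in wild-type libraries against 25.7, 20.9 and 22.6 CPM in knockout libraries. These groups also did not overlap, at a log2FC of 0.40 (SE 0.17, edgeR adjusted p = 0.331). COL17A1, the transmembrane collagen of the junction between epithelium and basement membrane, had the highest collagen level. It was at 37.5, 50.1 and 22.4 CPM in wild-type libraries against 32.7, 32.8 and 45.4 CPM in knockout libraries, so that the groups lay within each other (log2FC 0.01, SE 0.29). The other 4 were near 1 CPM or below, with log2FC values of 0.79 (SE 0.51) for COL6A1, 0.01 (SE 0.48) for COL11A2, -0.52 (SE 0.39) for COL5A2 and -0.92 (SE 0.88) for COL16A1. COL16A1 had 2, 34 and 15 reads in WT and 7, 3 and 16 reads in the KO, and without WT 2 its sign turned, to 0.14. COL11A2 turned its sign too, to -0.24 without WT 1.

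Of the laminin chains LAMB3 was lower in the KO libraries, and LAMC1 was higher. LAMB3 encodes a beta chain that joins the product of LAMA3 in the laminin of epithelial anchoring. LAMB3 (ENSG00000196878.15, chromosome 1, 209614870 to 209652466, minus strand) was at 20.7, 23.2 and 4.83 CPM in WT 1, 2 and 3 and at 2.23, 3.33 and 3.91 CPM in ZNFX1 KO 1, 2 and 3. WT 3 was close to the KO libraries and the other WT libraries were far above them. The log2FC was -2.36 (SE 0.54, edgeR adjusted p = 0.107). EPCAM reads were also high in WT 1 and WT 2 and low in WT 3, as given above, and whether this has a part in the LAMB3 result was not tested. In bulk RNA fewer cells that make a transcript and less of it per cell cannot be told apart.

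LAMC1 encodes the gamma chain of most laminins. LAMC1 (ENSG00000135862.6, chromosome 1, 183023460 to 183145592, plus strand) was at 433, 353 and 386 CPM in WT and at 516, 738 and 751 CPM in ZNFX1 KO 1, 2 and 3. The groups did not overlap, and ZNFX1 KO 1 lay between WT and the other KO libraries (log2FC 0.78, SE 0.20, edgeR adjusted p = 0.148). LAMB1, the beta chain that pairs with LAMC1 in the widespread laminins, was at 1355, 981 and 990 CPM in wild-type libraries against 1081, 647 and 705 CPM in knockout libraries. Here ZNFX1 KO 1 lay within the WT range and the other KO libraries lay below them all (log2FC -0.45, SE 0.25, edgeR adjusted p = 0.418). The TPM of LAMB1 divided by that of LAMC1, a ratio chosen after the values were seen, was 4.48, 3.97 and 3.68 in WT and 2.99, 1.26 and 1.35 in the KO. LAMA5, the alpha chain with the highest level, was at 136, 147 and 95.8 CPM in wild-type libraries against 129, 197 and 247 CPM in knockout libraries (log2FC 0.60, SE 0.27, edgeR adjusted p = 0.335), again with ZNFX1 KO 1 within the WT range. LAMB2, the beta chain of muscle and kidney laminins, was at 136, 172 and 94.2 CPM in wild-type libraries against 135, 107 and 127 CPM in knockout libraries (log2FC -0.12, SE 0.23). LAMA2, the muscle alpha chain, had 6 to 15 reads a library (log2FC -0.10, SE 0.48, and 0.19 without WT 1). LAMB1 and LAMA5 overlap DLD and ADRM1 on the opposite strand by 7932 and 908 bases. Whether the counting used strand is not given in the sources used here, so reads of these overlaps may be shared.

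The sequences just before the start of LAMB3, LAMC1 and ITGA2 are shown because these are the laminin and integrin genes with an unadjusted p under 0.05 that matched a promoter, apart from ITGB8. They come from RefSeq (GRCh38.p14), 5′ to 3′ on the gene's strand, and stop before the first annotated exon. Capitals mark the GC box, GGGCGG on either strand, a motif bound by Sp-family factors.
LAMB3, chr1:209652467-209652675, minus strand: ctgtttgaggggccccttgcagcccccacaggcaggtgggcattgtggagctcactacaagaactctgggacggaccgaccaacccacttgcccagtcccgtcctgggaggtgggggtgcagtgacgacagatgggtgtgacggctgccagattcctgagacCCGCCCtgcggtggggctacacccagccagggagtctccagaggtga
LAMC1, chr1:183023170-183023419, plus strand: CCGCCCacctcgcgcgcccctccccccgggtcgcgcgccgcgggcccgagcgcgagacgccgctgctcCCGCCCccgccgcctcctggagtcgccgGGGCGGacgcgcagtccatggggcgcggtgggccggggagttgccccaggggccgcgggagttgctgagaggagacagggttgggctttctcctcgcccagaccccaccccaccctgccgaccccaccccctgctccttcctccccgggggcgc
ITGA2, chr5:52989102-52989325, plus strand: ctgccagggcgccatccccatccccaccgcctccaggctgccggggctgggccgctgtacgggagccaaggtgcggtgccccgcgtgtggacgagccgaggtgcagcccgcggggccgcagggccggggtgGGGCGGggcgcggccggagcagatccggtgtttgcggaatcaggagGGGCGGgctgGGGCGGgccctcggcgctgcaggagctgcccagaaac
The windows are rich in G and C, at 64.6% for LAMB3, 79.6% for LAMC1 and 77.2% for ITGA2. GC boxes numbered 1 in the window of LAMB3, 3 in that of LAMC1 and 3 in that of ITGA2. Of the 26 genes 19 were matched to a promoter. In the 250 bases before the RefSeq start, uncut, GC content had a median of 64.4% over the 19, against 58% over all 35116 promoters of the table. Several of these uncut windows hold annotated exon bases of the gene, all 250 for COL16A1 and 198 for ITGB8. The window of ITGB1 lies inside the annotated gene. Each of the 19 genes has 1 window, at its most upstream RefSeq start, whereas a gene can have several of the 35116. The GC box was found in 12 of the 19, against 42.6% of all promoters. The AP-1 motif TGANTCA, searched on both strands, was found in 0 of the 19 and in 6.57% of all, and TATAAA in 2 of the 19 and in 10.7% of all. These are matches of letters only.

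Among the integrin alpha subunits, ITGA2, which with ITGB1 forms a collagen receptor, had the largest positive fold change. ITGA2, ITGAX and the rest of the alpha subunits below ITGA6 in level, like LAMA5, are given in full after their values were seen. ITGA2 (ENSG00000164171.11, chromosome 5, 52989326 to 53094779, plus strand) was at 9.65, 11.4 and 11.5 CPM in WT and at 10.7, 67.3 and 45.7 CPM in ZNFX1 KO 1, 2 and 3. ZNFX1 KO 1 lay within the WT range and the other KO libraries were far above it. The log2FC was 1.92 (SE 0.54, edgeR adjusted p = 0.171), and without ZNFX1 KO 1 it was 2.38 and passed the threshold (edgeR adjusted p = 0.00922). ITGA6, a laminin receptor subunit, was also highest in ZNFX1 KO 2 and 3 and low in ZNFX1 KO 1, at 140, 103 and 153 CPM in wild-type libraries against 93.4, 292 and 249 CPM in knockout libraries (log2FC 0.68, SE 0.38, edgeR adjusted p = 0.418). ITGA1, a second collagen receptor subunit, was at 1.44 ± 0.970 CPM in wild-type libraries against 3.57 ± 1.41 CPM in knockout libraries (log2FC 1.30, SE 0.60, edgeR adjusted p = 0.350). The gene row of ITGA1 held 49.7% of its reads, and PELO lies inside ITGA1 on the same strand, so its value is uncertain.

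ITGAX, the alpha subunit that leukocytes pair with ITGB2, was lower in the KO on average. ITGAX (ENSG00000140678.17, chromosome 16, 31355134 to 31382997, plus strand) was at 45.4, 88.3 and 12.4 CPM in WT 1, 2 and 3 and at 18.7, 12.3 and 12.2 CPM in the KO. WT 3 was at the level of the KO libraries and WT 2 was highest, as it was for the interferon-stimulated genes. Whether that has a part in the result was not tested. The log2FC was -1.75 (SE 0.58, edgeR adjusted p = 0.234) and -0.999 without WT 2 (adjusted p = 0.599). Its usual partner ITGB2 had 0 reads in every gene row.

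ITGA5, ITGA10, ITGAV and ITGA3 all had an unadjusted p above 0.05. ITGA5, the fibronectin receptor subunit, was at 199, 245 and 228 CPM in wild-type libraries against 198, 166 and 195 CPM in knockout libraries (log2FC -0.26, SE 0.17, edgeR adjusted p = 0.475). The lowest WT and the highest KO library were next to each other in CPM, and in TPM the groups overlapped. ITGA10, a collagen receptor subunit known from cartilage, was at 291, 303 and 126 CPM in wild-type libraries against 206, 205 and 202 CPM in knockout libraries (log2FC -0.24, SE 0.30), so that WT spread widely around an even KO group. ITGAV, the alpha subunit of receptors for vitronectin and osteopontin, was at 113 ± 21.5 CPM in wild-type libraries against 92.9 ± 30.6 CPM in knockout libraries (log2FC -0.28, SE 0.27). ITGA3, which binds the epithelial laminins, was at 26.7, 46.1 and 14.2 CPM in wild-type libraries against 22.3, 22.9 and 23.1 CPM in knockout libraries (log2FC -0.35, SE 0.36).

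Among the beta subunits was ITGB3, the gene with the smallest p of all 26. ITGB3 (ENSG00000259207.10, chromosome 17, 47253846 to 47311816, plus strand), which pairs with ITGAV in a receptor for vitronectin and osteopontin, was at 30.6, 40.9 and 20.5 CPM in wild-type libraries against 7.38, 10.9 and 12.4 CPM in knockout libraries. Each KO library was below every WT library, with a mean of 30.7 ± 10.2 CPM for WT and of 10.2 ± 2.56 CPM for the KO (SD, n = 3 each). The log2FC was -1.59 (SE 0.30, edgeR adjusted p = 0.0631). ITGB1 was at 1241, 1535 and 1191 CPM in wild-type libraries against 940, 1115 and 999 CPM in knockout libraries (log2FC -0.38, SE 0.18, edgeR adjusted p = 0.373). Its groups did not overlap in CPM, but in TPM they did, at 201 to 251 TPM in WT and 156 to 225 TPM in the KO. ITGB5, another partner of ITGAV, was at 12.6, 16.6 and 10.8 CPM in wild-type libraries against 9.37, 11.5 and 11.1 CPM in knockout libraries (log2FC -0.33, SE 0.22). ITGB8 (ENSG00000105855.10, chromosome 7, 20330702 to 20415754, plus strand), the partner of ITGAV that activates TGF-beta, was higher in the KO at a low level, with 15, 19 and 19 reads in WT and 43, 39 and 24 reads in the KO (log2FC 1.03, SE 0.36, edgeR adjusted p = 0.261). Of the reads of ITGB8 64.5% were in the gene row, and with transcript rows joined its log2FC was smaller, at 0.55 (edgeR adjusted p = 0.374).

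**Figure D3:**
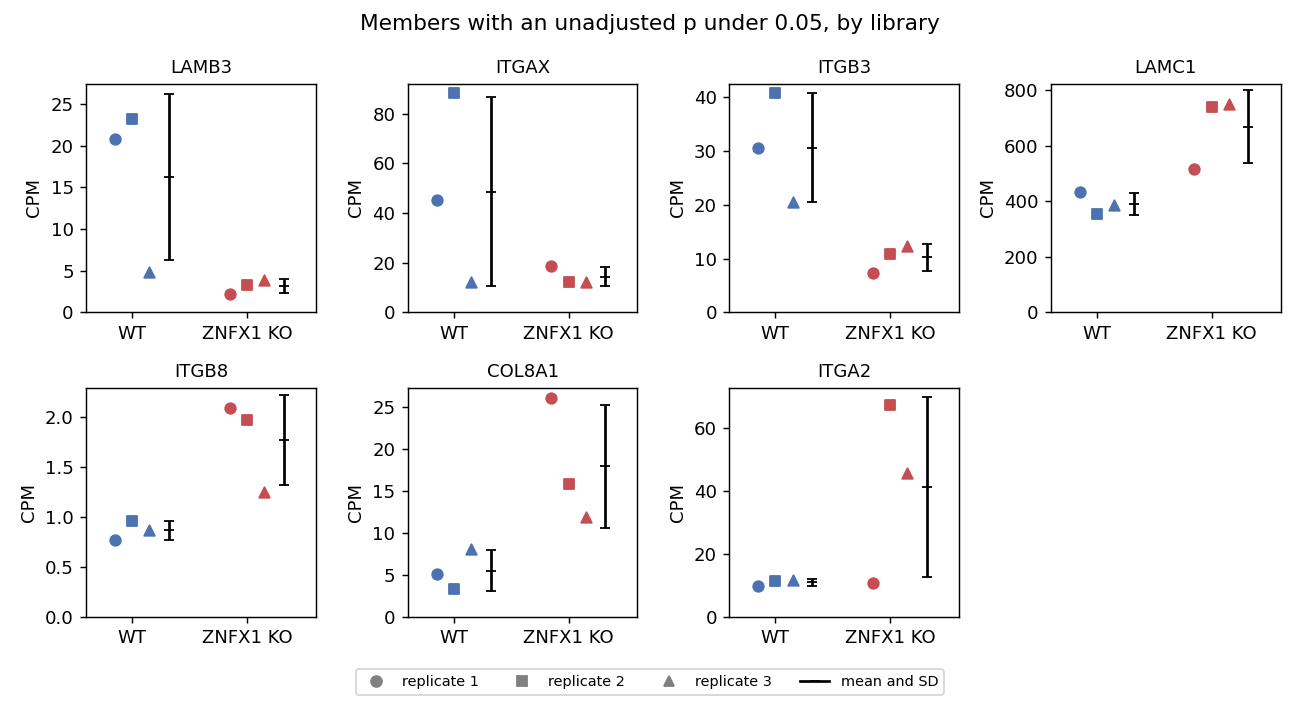
CPM (y axis) in each library for 7 of the 8 genes with an unadjusted p under 0.05, with marker shapes for the replicate number and black bars for the mean and SD of each group. WT 3 lies near the KO libraries for LAMB3 (4.83 CPM) and ITGAX (12.4 CPM), and ZNFX1 KO 1 lies at the WT level for ITGA2 (10.7 CPM).

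The call of a gene often turned on a single library. Leaving out WT 3 called 4 of the 26 (9.02% of all genes), LAMB3, ITGAX and ITGB3 as lower and COL8A1 as higher, at log2FC values of -2.78, -2.19, -1.79 and 2.12 (edgeR adjusted p = 0.00419, 0.0157, 0.0157 and 0.0246). Leaving out ZNFX1 KO 1 called only ITGA2 (0.751% of all genes). Leaving out WT 1, WT 2, ZNFX1 KO 2 or ZNFX1 KO 3 called 0 of the 26 (0.164%, 0.393%, 0.0137% and 0.0477% of all genes). The sign of each of the 8 genes with an unadjusted p under 0.05 was the same in all 16 alternatives tried. This is no separate support, since all 8 were singled out by p on the same 6 libraries. For the 6 with separated groups, leaving out 1 library could hardly turn the sign. ITGB3 was called in 4 alternatives, LAMB3, COL8A1, ITGAX and ITGA2 in 3 each, LAMC1 in 1 and ITGB8 in 0.

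**Figure D4:**
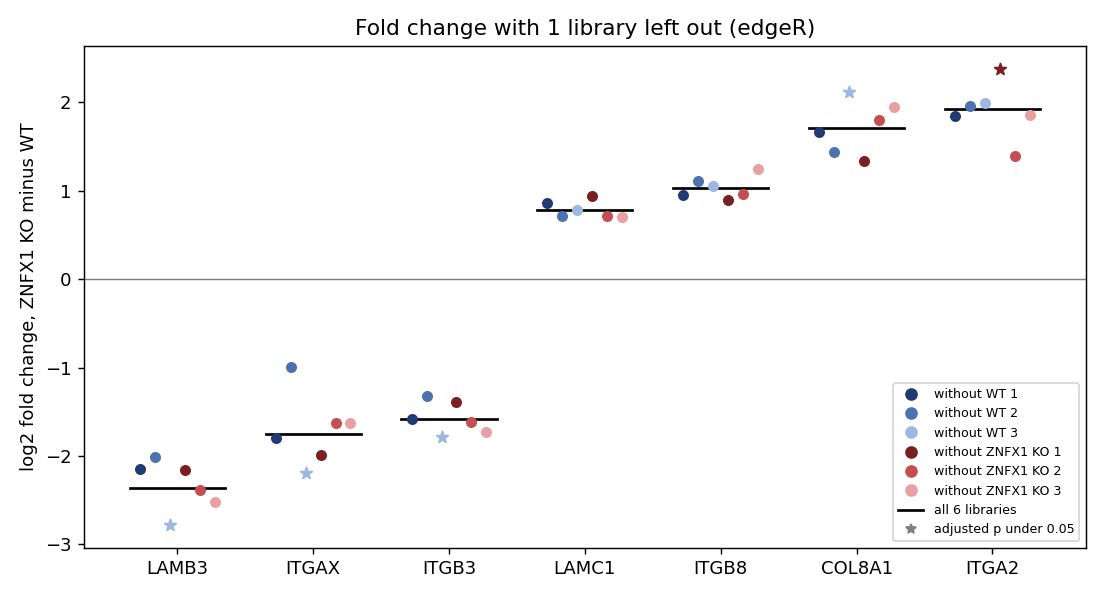
Log2 fold change (y axis, edgeR) of 7 of the 8 genes with an unadjusted p under 0.05 when 1 library is left out (points, coloured by library) and with all 6 libraries (black lines). Stars mark an adjusted p under 0.05, which 4 genes reach without WT 3 and ITGA2 without ZNFX1 KO 1.

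The genes that modify these chains, surround them or carry their signal were listed by function, and 0 of 66 tested genes of the 4 lists passed edgeR's adjusted threshold, with 21 at an unadjusted p under 0.05 (12 higher, 9 lower), or 31.8% where all tested genes gave 15.1%. DESeq2 called 9 of them, where it called 4.09% of all genes. Without WT 3 edgeR called 14 of them, where it called 9.02% of all genes, among them LOXL1, NID1, HSPG2, SPP1, ACTN4 and SRC of those described next. Of 21 tested genes of collagen modification and crosslinking 0 were called (median log2FC 0.15). An unadjusted p under 0.05 was reached by 4, all higher in the KO (19.0%, against 15.1% of all tested genes). In 5 all KO libraries were above all WT libraries, and in 0 all were below (23.8% not overlapping, against 20.2% of all tested genes). The most abundant were PPIB, which helps collagen chains to fold, at 238 ± 23.1 CPM in wild-type libraries against 311 ± 14.4 CPM in knockout libraries (log2FC 0.39, SE 0.16, edgeR adjusted p = 0.314), and P4HB, a subunit of prolyl hydroxylase, at 0.15 (SE 0.16). LOXL1, a crosslinking oxidase chosen after its values were seen, was at 3.83, 4.50 and 4.29 CPM in wild-type libraries against 9.18, 7.71 and 9.81 CPM in knockout libraries (log2FC 1.08, SE 0.23, edgeR adjusted p = 0.0806).

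Of 9 tested basement membrane partners 0 were called (median -0.39). An unadjusted p under 0.05 was reached by 5 (55.6%, against 15.1% of all tested genes), of which 1 was higher and 4 were lower in the KO. Of these 5, 4 had groups that did not overlap (44.4%, against 12% of all tested genes). The most abundant members had fold changes of opposite sign. NID1, nidogen, the linker that binds the gamma chain made by LAMC1, was at 123, 71.9 and 107 CPM in wild-type libraries against 202, 255 and 281 CPM in knockout libraries. All KO libraries were above all WT libraries (log2FC 1.29, SE 0.24, edgeR adjusted p = 0.0594). HSPG2, the proteoglycan perlecan, was at 832, 982 and 722 CPM in wild-type libraries against 515, 373 and 503 CPM in knockout libraries, with all KO libraries lower (log2FC -0.87, SE 0.21, edgeR adjusted p = 0.118).

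Of 9 tested other integrin ligands 0 were called (median 0.17), and 4 had an unadjusted p under 0.05, 2 in each direction (44.4%, against 15.1% of all tested genes). Only 1 of the 9 had groups that did not overlap (11.1%, against 20.2% of all tested genes). The most abundant, ICAM2 and ICAM3, ligands of leukocyte integrins, had log2FC values of -0.16 (SE 0.22) and 0.17 (SE 0.26). SPP1, osteopontin, a ligand of the receptor of ITGAV and ITGB3, was picked with its values in view. Its level was 1.48, 3.14 and 8.75 CPM in wild-type libraries against 29.7, 29.9 and 35.9 CPM in knockout libraries, all KO libraries above all WT libraries (log2FC 2.83, SE 0.53, edgeR adjusted p = 0.0631). Without WT 3, the highest WT library, SPP1 was at 3.80 (edgeR adjusted p = 0.00322), in a setting that called 9.02% of all genes. On all libraries limma-voom gave 3.17 (adjusted p = 0.0336). SPP1 was called in 5 of 16 alternatives, and not without ZNFX1 KO 2 or ZNFX1 KO 3 (edgeR adjusted p = 0.250 and 0.260). Of 27 tested genes of the adhesion machinery inside the cell 0 were called (median 0.04). An unadjusted p under 0.05 was reached by 8 (29.6%, against 15.1% of all tested genes), 5 higher and 3 lower. ZYX, among the most abundant, was at -0.09 (SE 0.21). A further 3 scaffold or signalling genes were also looked at afterwards. ACTN4, an actin crosslinker, was at 167 ± 52.3 CPM in wild-type libraries against 340 ± 26.9 CPM in knockout libraries (log2FC 1.02, SE 0.24), PXN, paxillin, at 523 ± 34.6 and 340 ± 53.6 CPM (-0.62, SE 0.18), and the kinase gene SRC at 17.1 ± 7.78 and 6.54 ± 0.528 CPM (-1.39, SE 0.33), with edgeR adjusted p of 0.112, 0.182 and 0.122.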

How the data were processed

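Total RNA of 3 WT and 3 ZNFX1 KO libraries of TYK-nu cells was sequenced after a strand-marking kit and grouped by the sample titles. Per the labels, Salmon made the deposited estimated counts (NumReads) and TPM. The submitters' processing notes also name FastQC, Trimmomatic and DESeq2, with no version. Genome build, annotation and strand setting: not given in the sources used here. Of 197169 rows 134909 were transcripts not joined to a gene in the deposited tables (9.93% to 10.7% of fragments), left out of the main test. A gene could be assigned to 103521 of them, and only these were joined in the alternative setting. Coordinates and gene types came from GENCODE 29 (GRCh38), which holds 57833 of 62260 gene rows, and symbols from a gene table.

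The deposited counts were rounded to whole numbers. Genes kept by filterByExpr (14166) were scaled by TMM (factors 0.958 to 1.04) and tested with edgeR 4.0.16's quasi-likelihood test in R 4.3.3, two-sided, genotype as the only term, with Benjamini-Hochberg adjustment over all tested genes. All 26 members were among them. A standard error is |log2FC| over the root of the F statistic. Alternatives used DESeq2 1.42.0, limma 3.58.1 and other settings. Library pairs differed beyond sampling noise (lowest chi-square 31.1 per degree of freedom). The test was tried on simulated counts, with 100 genes altered at each of 2 sizes, all drawn from genes at a mean of 2 CPM or more. Recovery was 30% for a 2-fold difference and 89% for a 4-fold difference. Among its 132 calls 13 were false. The absence of a call therefore says little about differences near 2-fold. The simulation did not cover genes below 2 CPM, such as COL6A1 and ITGB8. Larger fold changes also went uncalled in the main test, as for LAMB3 (log2FC -2.36) and SPP1 (log2FC 2.83). The members and lists were chosen with earlier results of these data known. The rule for named genes took every called member, members with an unadjusted p under 0.05 and groups that did not overlap, the 3 highest by TPM of each family, and the called or else the 2 most abundant genes of each other list. 2 genes that it takes are not reported here by name, but are in the counts.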

Additional observations from a re-analysis of the deposited data

Results flagged for a closer look

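LAMA3, the alpha chain that joins the product of LAMB3, was listed at 0 in every gene row but had reads in transcript rows that the main test did not use. These rows held 0, 1 and 4 reads in WT 1, 2 and 3 and 6, 15 and 11 reads in ZNFX1 KO 1, 2 and 3. LAMA3 is listed here because each KO library was above every WT library in data outside the main measurement. It was picked for this separation from the 25 genes at 0 in every gene row. The rule asked for more than 3 reads in each KO library and did not look for genes higher in WT. The counts are small, and the difference was not tested.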

How the results depend on the processing

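The count of called members was 0 in the main setting. It was 6 with no filter, 7 with DESeq2's Wald test and 1 with joined transcript rows, and 0 to 4 with 1 library left out, the 4 without WT 3. It stayed at 0 with the replicate block and in the other settings. The count over all tested genes was 103, and it was 602, 579 and 187 in those settings, 22 with limma on log2(TPM + 1), 14 with the replicate block and 2 to 1315 with 1 library left out, the 1315 in the absence of WT 3 and the 2 in that of ZNFX1 KO 2. The genes of the other lists went from 0 to 8, 9 and 4 called in those settings, to 1 with limma-voom and to 14 without WT 3. Same-numbered libraries did not deviate together (correlations of 0.129, -0.041 and 0.007), so the replicate numbers were not taken as pairs. ZNFX1 was called without WT 3 (log2 fold change -1.01, edgeR adjusted p = 0.0468, range over the alternatives 0.0468 to 0.553), and its log2 fold change was -1.03 to -0.53 with 1 library left out. Of 544 values of 34 named genes 490 kept their direction and side of the threshold, 46 passed it and 8 changed sign. With 1 library left out, COL17A1 went from -0.23 (WT 3) and -0.14 (ZNFX1 KO 3) to 0.30, ICAM2 from -0.32 to 0.033 (ZNFX1 KO 2), ICAM3 from -0.031 (WT 2) to 0.34, ITGA3 from -0.66 to 0.15 (WT 2), LAMB2 from -0.30 to 0.10 (WT 2) and ZYX from -0.19 to 0.05 (ZNFX1 KO 2) and 0.086 (WT 1), naming the library whose absence turned the sign. Of the other members COL16A1, COL11A2 and LAMA2, all near or below 1 CPM, also changed sign in at least 1 setting. The cause was not tested for any of these. Where a group had 2 libraries, the spread was estimated over both groups. COL6A1, at 5 to 17 reads a library, shows how few reads the low genes rest on.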
